A study of Coturnix japonica with 12 samples.

Results

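The left and the right Müllerian duct of female Japanese quail embryos (*Coturnix japonica*) were compared without added oestrogen. The comparison rests on 3 left and 3 right samples of embryos given sesame oil, 6 of the 12 samples of the study, and covers the 12113 of 16013 genes with an FPKM (counted reads scaled by exonic length and by the library's total) of at least 1 in at least 3 of the 12 samples. Genes of metabolism, transport, transcription and adhesion are described here, from 60 gene lists that hold 1771 tested genes. The other 6 samples are left and right ducts, 3 each, of embryos given ethynylestradiol (EE), a synthetic oestrogen, in sesame oil. Oil or EE was given between embryonic days 3 and 12, and all embryos were female and grew in a surrogate eggshell. Total RNA was purified on RNeasy columns, a Micro or a Mini kit, and polyadenylated RNA was sequenced. The labels do not say whether the samples of a group came from separate embryos, so that a p-value measures only the spread between these samples, which may be technical.

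Müllerian ducts are paired tubes of epithelium and surrounding mesenchyme that form beside the ducts of the embryonic kidney. In most female birds the left duct grows into the oviduct, which adds egg white, membranes and shell to the yolk, whereas the right duct stops growing and regresses under anti-Müllerian hormone. Sequencing of a whole duct averages over its epithelium, mesenchyme, vessels, blood and any attached tissue, so that fewer cells of a type and less RNA per cell cannot be told apart.

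Total counts ran from 13303458 to 23266636 in the 6 oil samples. Markers of the Müllerian duct were detected on both sides, with none of the 15 at 0, and summed to between 2040 and 2170 CPM (read counts scaled to a common library total) in left ducts and between 1740 and 1910 CPM in right ducts, with 5 called higher in left ducts and 1 in right ducts. Haemoglobin transcripts took 3.01%, 2.03% and 1.35% of the counts in left ducts and 6.11%, 12.7% and 7.46% in right ducts, and oil_right 2 had the highest share. All 22 markers of dividing cells and 16 of 18 endothelial markers were higher on the left, whereas 8 of 10 macrophage and 13 of 15 red cell markers were higher on the right. Beside the lists that follow, the values of these markers are given where they move with them, and their part in those results was not tested.

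With edgeR's quasi-likelihood test and Benjamini-Hochberg adjustment over all genes, 4422 genes (36.5%) were called at an adjusted p under 0.05. Of all tested genes, 18.4% were higher in left ducts and 18.1% in right ducts, 9.2% were called and at least 2-fold apart, and in 47.4% the samples of the sides did not overlap. A list is read against these shares. The genes that lead each category by their ratio were taken only from genes whose samples did not overlap between the sides. For these leading genes the lack of overlap was a condition of the choice and is no further result. In the adhesion lists together, 143 of 380 genes were higher in left ducts and 75 in right ducts (median log2 ratio 0.18, against 0.00 over all genes). The other categories were close to balanced, with 96 left and 90 right of 451 metabolic genes, 92 and 110 of 487 transport genes, and 82 and 96 of 462 transcription factors. Levels are CPM scaled by TMM factors (a correction for the make-up of each library), and differences are log2 ratios of left over right with their standard error (SE). The SE was worked back from the ratio and the F statistic of the quasi-likelihood test. Scaling by library size alone moved the median of all genes to 0.18 towards the left, and a log2 ratio of a list is to be read relative to that shift. Under that scaling 3749 genes were called higher in left ducts and 1224 in right ducts, or 75.4% of calls on the left in place of 50.5%.

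**Figure D1:**
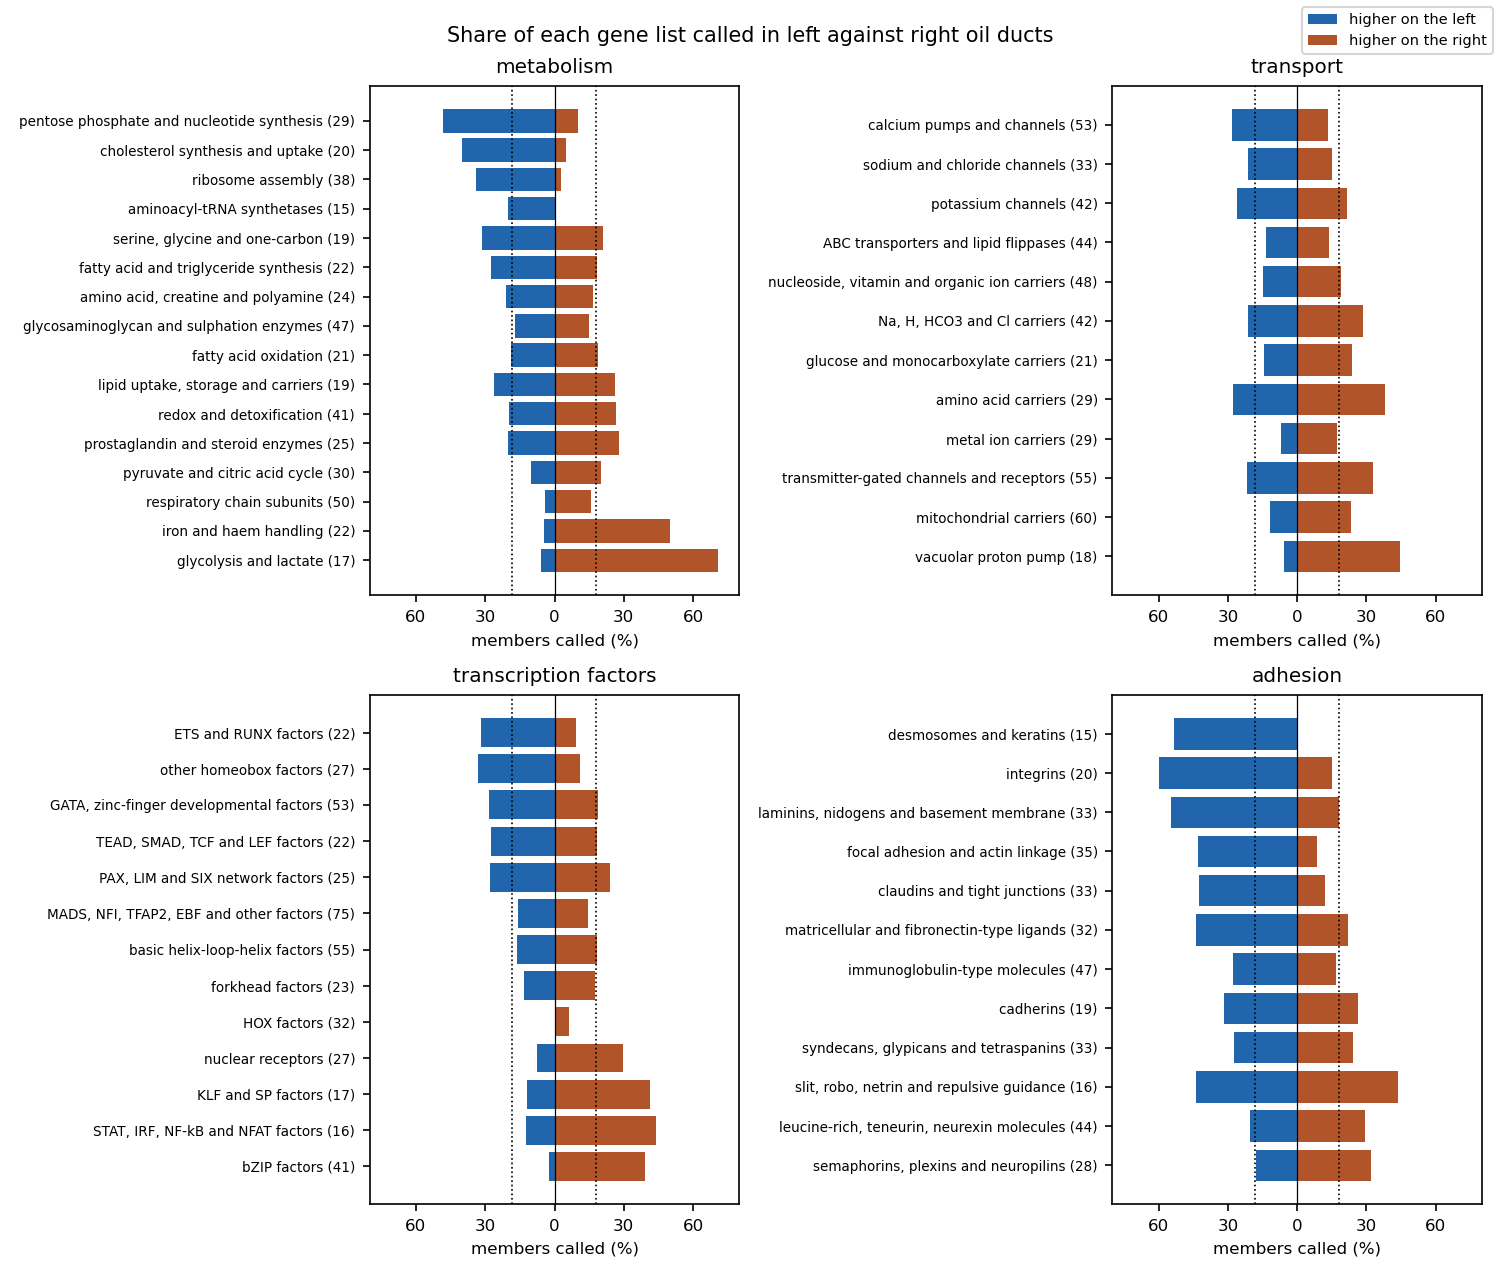
Share of the tested members of each gene list called at an adjusted p under 0.05, in percent, with members higher in left ducts drawn to the left and members higher in right ducts to the right; the number of tested members stands in brackets, lists with at least 15 tested members are shown, and dotted lines mark the shares over all genes (18.4% and 18.1%). Glycolysis, iron handling, the vacuolar proton pump and bZIP factors lean to the right, and integrins, basement membrane, desmosomes and nucleotide synthesis to the left.

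Enzymes of glycolysis, which splits glucose into pyruvate, were lower in left ducts. Of 17 tested members 1 was higher in left ducts and 12 in right ducts, with a median log2 ratio of -0.56 (-0.38 with library size alone), and their summed level ran from 7240 to 7820 CPM in left ducts and from 10700 to 11200 CPM in right ducts. GPI, the isomerase at the second step of the pathway, stood at 152, 155 and 154 CPM in left ducts and at 261, 290 and 267 CPM in right ducts (log2 ratio -0.83 ± 0.09 SE, adjusted p = 5.21e-06). ALDOC, an aldolase that cleaves the 6-carbon sugar, had 159, 168 and 148 CPM in left ducts against 272, 292 and 320 CPM in right ducts (log2 ratio -0.89 ± 0.09 SE, adjusted p = 1.34e-06). Levels of PKM, pyruvate kinase of the last step, were 876, 902 and 866 CPM in left ducts and 1450, 1420 and 1510 CPM in right ducts (log2 ratio -0.73 ± 0.07 SE, adjusted p = 2.11e-06). In each of these genes the left samples all lay below the right ones, with little spread within a side.

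The abundant enzyme GAPDH, at 3360, 3480 and 2950 CPM in left ducts and 5380, 4880 and 5040 CPM in right ducts, had a log2 ratio of -0.64 ± 0.10. TPI1, which acts just before GAPDH (-0.57 ± 0.08), and PGAM1, which acts after it (-0.56 ± 0.08), were lower on the left by a like amount, and PGK1 (-0.30 ± 0.09) and ENO1 (-0.32 ± 0.09), also between GAPDH and PKM, by less. ENO2, the enolase known from nerve cells, stood at 2.37, 1.71 and 1.8 CPM in left ducts and at 7.42, 10.1 and 8.1 CPM in right ducts (log2 ratio -2.11 ± 0.31 SE, adjusted p = 7.57e-05). HK1 (adjusted p = 0.249), PFKL (0.283), PFKM (0.508) and LDHB (0.232) did not pass the test. PFKFB2, a regulator of the pathway, was the 1 member higher on the left (1.03 ± 0.27), opposite to PFKFB3 of the same family (-1.53 ± 0.27). The log2 haemoglobin share, which does not overlap between the sides, was also added to the fit as a covariate. With it 8 of the 12 were still called lower on the left. PFKFB2 (log2 ratio 0.96, adjusted p = 0.175) and PFKFB3 (-0.67, 0.304) were among those no longer called. PGK1 (-0.31, 0.204) and ENO1 (-0.39, 0.0715) lost their call too, with ratios that had not shrunk. ENO1 and PGK1 were not called with library size alone (adjusted p = 0.255 and 0.314). The call of PGK1 was also lost without oil_left 1 (adjusted p = 0.0571) or oil_right 3 (0.0527). PFKP, also of the 12 (-0.28 ± 0.10, adjusted p = 0.0446), kept its call with the covariate (0.0342). It lost the call with library size alone (0.542) and in the 6 oil samples alone (0.0596). The call of PFKP was also lost without oil_left 1 (0.183), oil_left 2 (0.0656), oil_right 2 (0.0944) or oil_right 3 (0.187). Leaving out single EE samples could remove it as well. With library size alone 3 of the 17 members were called on the left side and 9 on the right side.

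**Figure D2:**
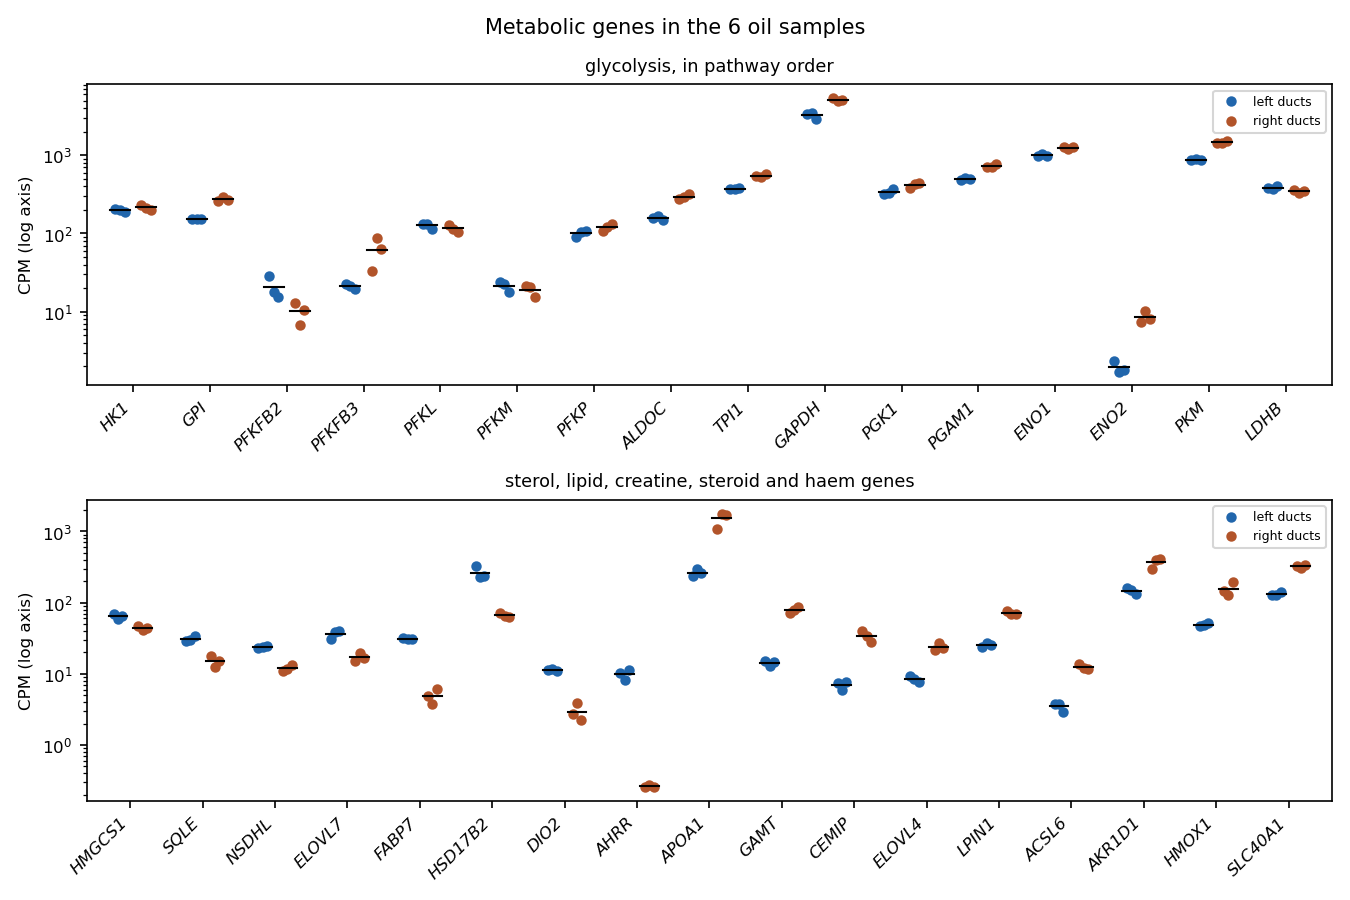
CPM on a log axis of metabolic genes in the 3 left and the 3 right oil samples, 1 point a sample and a line at the mean of each side. From GPI to PKM most glycolytic genes lie lower on the left, whereas the sterol genes HMGCS1 to NSDHL lie higher on the left; HK1, PFKL and PFKM overlap between the sides.

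Genes of the steps after pyruvate differed in few cases, and their direction depended on the scaling. In the citric acid cycle list 3 of 30 genes were higher in left ducts and 6 in right ducts, and in the respiratory chain list 2 of 50 and 8, with medians of -0.02 in both (0.16 in both with library size alone). With library size alone the direction of the calls turned, to 10 left and 0 right in the citric acid cycle list and 13 left and 0 right in the respiratory chain list. None of these calls held with the haemoglobin covariate. The dehydrogenases IDH3A (0.64 ± 0.11), MDH1 (0.34 ± 0.08) and MDH2 (0.31 ± 0.09) were the citric acid cycle members higher on the left.

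Genes that make DNA precursors were higher in left ducts, 14 of 29 tested members of the nucleotide list against 3 on the right. These were 9 and 0 with the covariate. TK1, thymidine kinase, had 105, 83 and 97.3 CPM in left ducts against 29.6, 29.5 and 26.7 CPM in right ducts (log2 ratio 1.74 ± 0.11 SE, adjusted p = 1.48e-08). Levels of RRM2, the small subunit of ribonucleotide reductase, were 123, 135 and 123 CPM in left ducts and 37.1, 40.4 and 41.4 CPM in right ducts (log2 ratio 1.68 ± 0.10 SE, adjusted p = 8.42e-09). The left samples were all far above the right ones in both genes. RRM1, the large subunit of that reductase (1.19 ± 0.11), and TYMS, which makes thymidylate (0.75 ± 0.10), were also higher on the left. The 22 markers of dividing cells summed to between 3540 and 3860 CPM in left ducts and between 1090 and 1210 CPM in right ducts, with none at 0. In the ribosome assembly list 13 of 38 genes were higher in left ducts and 1 in right ducts, none by as much as 2-fold, and none of these calls held with the covariate.

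Genes of cholesterol synthesis were higher in left ducts, 8 of 20 against 1, with a median log2 ratio of 0.36. These were 4 and 0 with the covariate (median 0.39). SQLE, squalene epoxidase, stood at 28.7, 30.1 and 34 CPM in left ducts and at 17.8, 12.4 and 15.1 CPM in right ducts (log2 ratio 1.03 ± 0.14 SE, adjusted p = 4.23e-05). NSDHL, which removes methyl groups from the sterol ring, had 23.3, 23.9 and 24.2 CPM in left ducts against 11.1, 11.8 and 13.1 CPM in right ducts (log2 ratio 0.99 ± 0.13 SE, adjusted p = 2.24e-05). None of the left samples overlapped the right ones in these genes. HMGCS1, at the start of the pathway, differed less (0.55 ± 0.10). The exception was FDFT1, the squalene synthase just before SQLE (-0.36 ± 0.11), which was higher on the right in a call lost without oil_left 1 (adjusted p = 0.0972) or oil_right 3 (0.0872) and with the covariate (0.66).

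Fatty acid genes differed in both directions, with 6 of 22 members of the synthesis list higher in left ducts and 4 in right ducts. ELOVL7 (1.07 ± 0.13) and ELOVL6 (1.03 ± 0.15), which elongate long chain fatty acids, were higher on the left. ELOVL6 was not called with the covariate (log2 ratio 0.6, adjusted p = 0.082). Levels of ELOVL4, which makes very long chain fatty acids, were 9.36, 8.33 and 7.78 CPM in left ducts and 21.7, 26.8 and 23.1 CPM in right ducts (log2 ratio -1.49 ± 0.16 SE, adjusted p = 2.86e-06). LPIN1, a phosphatidate phosphatase of fat synthesis, stood at 23.6, 27.4 and 25.4 CPM in left ducts and at 77, 69.1 and 68.2 CPM in right ducts (log2 ratio -1.49 ± 0.13 SE, adjusted p = 5.81e-07). ACSL6, which activates long chain fatty acids, had 3.82, 3.79 and 2.95 CPM in left ducts against 13.7, 12.1 and 11.6 CPM in right ducts (log2 ratio -1.82 ± 0.24 SE, adjusted p = 2.32e-05). The elongases thus moved apart, with ELOVL4 lower in every left sample than in any right one.

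Among proteins that carry lipid the 2 largest differences were opposite. Levels of FABP7, a fatty acid binding protein known from glia, were 31.8, 30.6 and 30.9 CPM in left ducts and 4.94, 3.73 and 6.1 CPM in right ducts (log2 ratio 2.65 ± 0.21 SE, adjusted p = 1.54e-07). APOA1, the main protein of high-density lipoprotein, stood at 236, 294 and 262 CPM in left ducts and at 1100, 1780 and 1720 CPM in right ducts (log2 ratio -2.54 ± 0.21 SE, adjusted p = 1.96e-07). The right samples varied more than the left ones in APOA1, without overlap. The lipid exporter ABCA1, which loads APOA1 with cholesterol, was likewise lower on the left, at 143, 146 and 143 CPM in left ducts and 417, 356 and 331 CPM in right ducts (-1.36 ± 0.10, adjusted p = 4.49e-08).

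GAMT, the enzyme of the last step of creatine synthesis, had 15, 13 and 14.5 CPM in left ducts against 71, 79.1 and 86.1 CPM in right ducts (log2 ratio -2.48 ± 0.18 SE, adjusted p = 7.58e-08). GAMT was lower in every left sample than in any right sample, and it was also called in EE ducts in the same direction (-1.09, adjusted p = 0.0352). In the list of amino acid, creatine and polyamine genes 5 of 24 were higher in left ducts and 4 in right ducts, near the shares over all genes. Of its polyamine members, AMD1 (0.83 ± 0.09) and SMS (0.64 ± 0.09), which build spermidine and spermine, were higher on the left, and SAT1, which starts their breakdown, was lower on the left, at 78, 81 and 70.4 CPM in left ducts and 158, 291 and 203 CPM in right ducts (-1.5 ± 0.20, adjusted p = 2.36e-05).

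Levels of CEMIP, which takes part in breaking down hyaluronan, were 7.45, 5.95 and 7.57 CPM in left ducts and 40.5, 34.3 and 28.4 CPM in right ducts (log2 ratio -2.30 ± 0.28 SE, adjusted p = 1.14e-05). A gene without a name overlaps CEMIP on the same strand and may share reads with it. The related CEMIP2 was opposite (0.85 ± 0.15), a call not kept with the covariate (adjusted p = 0.125). CHPF, which elongates chondroitin sulphate chains, was lower on the left (-1.0 ± 0.09).

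In the list of serine, glycine and one-carbon genes 6 of 19 were higher in left ducts and 4 in right ducts. These were 1 and 0 with the covariate. SHMT1, which passes a carbon from serine to folate, stood at 29.3, 31.1 and 34 CPM in left ducts and at 13.7, 13.9 and 17.5 CPM in right ducts (log2 ratio 1.06 ± 0.12 SE, adjusted p = 8.28e-06). PHGDH, the first enzyme of serine synthesis, was opposite, at 21.7, 38.4 and 39.8 CPM in left ducts and 66.3, 106 and 95.1 CPM in right ducts (-1.43 ± 0.26), and was not called with the covariate (adjusted p = 0.169). The sides were apart in both genes.

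Enzymes that act on hormones differed in both directions. HSD17B2, which oxidises oestradiol to the weaker oestrone, had 329, 230 and 236 CPM in left ducts against 72.5, 65.9 and 62.6 CPM in right ducts (log2 ratio 1.98 ± 0.15 SE, adjusted p = 9.5e-08). Levels of DIO2, which activates thyroid hormone, were 11.3, 11.5 and 11 CPM in left ducts and 2.73, 3.9 and 2.21 CPM in right ducts (log2 ratio 1.94 ± 0.31 SE, adjusted p = 0.000185). AKR1D1, a reductase of steroid hormones and bile acid precursors, stood at 160, 152 and 131 CPM in left ducts and at 299, 391 and 413 CPM in right ducts (log2 ratio -1.31 ± 0.16 SE, adjusted p = 1.6e-05). HSD17B2 and DIO2 were higher in all left samples, and AKR1D1 in all right ones. THRB, a thyroid hormone receptor, went against DIO2, at 9.36, 10.7 and 19.7 CPM in left ducts and 37.2, 21.1 and 39.7 CPM in right ducts (-1.31 ± 0.28, adjusted p = 0.00179).

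AHRR, the repressor of the aryl hydrocarbon receptor, which senses foreign chemicals, had 10.2, 8.29 and 11.3 CPM in left ducts against 0.258, 0.278 and 0.256 CPM in right ducts (log2 ratio 5.20 ± 0.42 SE, adjusted p = 1.64e-07). It had the highest ratio in the metabolic lists, and its counts were 576 over the left samples and 15 over the right samples. The receptor itself, AHR, was higher on the left by far less (0.59 ± 0.12). It was not called with the covariate (log2 ratio 0.21, adjusted p = 0.446).

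Genes of iron and haem handling were lower in left ducts, with 1 of 22 tested members called on the left side and 11 on the right side. Levels of SLC40A1, the only known exporter of iron from cells, were 129, 129 and 141 CPM in left ducts and 331, 309 and 339 CPM in right ducts (log2 ratio -1.30 ± 0.13 SE, adjusted p = 1.76e-06). FTH1, the heavy chain of the iron store ferritin, stood at 2280, 2130 and 1690 CPM in left ducts and at 5330, 9570 and 5480 CPM in right ducts (log2 ratio -1.74 ± 0.25 SE, adjusted p = 5.5e-05). HMOX1, which degrades haem, had 47.1, 48.3 and 50.9 CPM in left ducts against 145, 128 and 193 CPM in right ducts (log2 ratio -1.67 ± 0.16 SE, adjusted p = 8.43e-07). These 3 genes kept their call with the covariate, but TFRC, the transferrin receptor (-1.64 ± 0.39), did not (adjusted p = 0.996), and of the 11 members 2 did, SLC40A1 and FTH1, the second at a log2 ratio of -0.57. HMOX1 is held by another list. The 15 red cell markers summed to between 13900 and 31000 CPM in left ducts and between 67600 and 155000 CPM in right ducts. The 10 tested macrophage markers summed to between 78.8 and 79.7 CPM in left ducts and between 204 and 228 CPM in right ducts. No marker of either list was at 0, while the macrophage genes ITGB2, MARCO and PTPRC were under the expression filter.

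Transport genes as a whole were balanced, with a median log2 ratio of -0.05 that became 0.14 with library size alone, so the members are described by what they carry. Of 33 sodium and chloride channels 7 were higher in left ducts and 5 in right ducts, near the shares over all genes, and 2 and 1 with the covariate. The called chloride channels differed in both directions. Levels of CFTR, a chloride channel opened by cyclic AMP, were 47.2, 71.9 and 62.7 CPM in left ducts and 10.2, 18.3 and 12.9 CPM in right ducts (log2 ratio 2.13 ± 0.19 SE, adjusted p = 4.29e-07). ANO1, a chloride channel opened by calcium, stood at 149, 137 and 134 CPM in left ducts and at 53.4, 45.8 and 35 CPM in right ducts (log2 ratio 1.65 ± 0.13 SE, adjusted p = 1.54e-07). KCNJ15, an inward rectifier potassium channel, had 63.5, 62.7 and 79.9 CPM in left ducts against 19.5, 12.8 and 18.6 CPM in right ducts (log2 ratio 2.01 ± 0.15 SE, adjusted p = 6.98e-08). None of the left samples overlapped the right ones. CLIC6, a chloride channel protein, was opposite, at 31.5, 39.6 and 33.3 CPM in left ducts and 70.8, 110 and 79 CPM in right ducts (-1.31 ± 0.21, adjusted p = 0.000159).

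Called water channels differed in both directions. Levels of AQP1, a water channel of vessels and epithelia, were 282, 304 and 338 CPM in left ducts and 185, 120 and 134 CPM in right ducts (log2 ratio 1.07 ± 0.13 SE, adjusted p = 1.35e-05). The left samples were all above the right ones. AQP5, a water channel of glands, was opposite at a low level, 0.279, 0.999 and 0.504 CPM in left ducts and 4.58, 3.34 and 2.82 CPM in right ducts (-2.55 ± 0.71, adjusted p = 0.01). Its call was lost with the covariate (adjusted p = 0.106) and without oil_left 1, oil_right 1 and EE_right 1 together (0.102), and its ratio was -3.22 without oil_left 2. In the list of aquaporins and gap junctions 4 of 13 genes were higher in left ducts and 1 in right ducts, and 2 and 0 with the covariate. The 16 epithelial markers summed to between 1430 and 1570 CPM in left ducts and between 1170 and 1190 CPM in right ducts, a smaller difference than those of CFTR and ANO1, with 8 higher in left ducts and 1 in right ducts. The 18 endothelial markers summed to between 966 and 1020 CPM in left ducts and between 474 and 549 CPM in right ducts. No marker of these lists that was tested was at 0.

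Calcium channels and exchangers were called on the left side in 15 of 53 cases and on the right side in 7, but with the covariate in 5 cases on each side (median 0.01). CACNA1D, an L-type calcium channel, stood at 41.7, 48.5 and 63.8 CPM in left ducts and at 17.4, 14.9 and 20.6 CPM in right ducts (log2 ratio 1.54 ± 0.18 SE, adjusted p = 1.08e-05). SLC8A3, a sodium-calcium exchanger, had 89.5, 74.7 and 81.9 CPM in left ducts against 26.5, 24.6 and 28.3 CPM in right ducts (log2 ratio 1.63 ± 0.21 SE, adjusted p = 2.62e-05). Levels of CACNA1B, the N-type calcium channel of nerve endings, were 7.87, 12 and 7.57 CPM in left ducts and 28.5, 58 and 43.3 CPM in right ducts (log2 ratio -2.23 ± 0.24 SE, adjusted p = 3.79e-06). CACNA1D and CACNA1B thus moved apart without overlap of the sides, though CACNA1D overlaps CHDH on the opposite strand, and reads of the pair cannot be told apart if the counting ignored strand.

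Further carriers and receptors were higher in left ducts. SLC45A2, a transporter known from pigment cells, stood at 10.4, 7 and 11.8 CPM in left ducts and at 1.24, 1.11 and 1.85 CPM in right ducts (log2 ratio 2.79 ± 0.39 SE, adjusted p = 4.8e-05). AVPR1A, a receptor of the hormone that in birds is vasotocin, stood at 49.4, 39.5 and 48.5 CPM in left ducts and 12.6, 17.2 and 12.6 CPM in right ducts (1.70 ± 0.20, adjusted p = 1.16e-05). The adenosine receptor ADORA2A was also higher on the left (1.46 ± 0.14). All left samples were above all right samples in these 3 genes.

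Potassium channels were close to balanced, 11 of 42 higher in left ducts and 9 in right ducts (median 0.05), and 1 and 4 with the covariate. The 2 lowest ratios above 5 CPM were in accessory subunits. KCNMB4, a subunit of the calcium-activated potassium channel, had 1.58, 0.916 and 2.45 CPM in left ducts against 23.1, 26.7 and 22.6 CPM in right ducts (log2 ratio -3.92 ± 0.31 SE, adjusted p = 1.64e-07). Levels of KCNIP2, which binds voltage-gated potassium channels, were 3.26, 4.21 and 2.09 CPM in left ducts and 21.6, 21.4 and 24.2 CPM in right ducts (log2 ratio -2.78 ± 0.25 SE, adjusted p = 6.58e-07). For KCNMB4 and KCNIP2 no left sample exceeded 4.21 CPM. Of 55 transmitter receptors 12 were higher in left ducts and 18 in right ducts, which turned to 17 and 13 with library size alone. GRIA1, a glutamate receptor subunit, stood at 2.79, 3.5 and 2.16 CPM in left ducts and at 28.3, 26.3 and 31.5 CPM in right ducts (log2 ratio -3.33 ± 0.37 SE, adjusted p = 5.3e-06). AGTR1, an angiotensin receptor, had 1.02, 0.375 and 0.937 CPM in left ducts against 7.93, 11.6 and 9.23 CPM in right ducts (log2 ratio -3.64 ± 0.50 SE, adjusted p = 4.19e-05). The serotonin receptor HTR1B (-1.59 ± 0.17) and the GABA receptor subunit GABRG3 (-1.61 ± 0.15) were lower on the left as well. Of 13 tested nerve and glia markers 1 was higher in left ducts and 3 in right ducts, and they summed to between 192 and 225 CPM in left ducts and between 252 and 271 CPM in right ducts, with none at 0.

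Of 21 glucose and monocarboxylate carriers 3 were higher in left ducts and 5 in right ducts (median 0.09), near the shares over all genes, and 7 and 4 with library size alone. Levels of SLC2A1, the glucose carrier GLUT1, were 62.6, 55.5 and 64.8 CPM in left ducts and 100, 111 and 106 CPM in right ducts (log2 ratio -0.80 ± 0.11 SE, adjusted p = 3.16e-05). SLC38A3, a glutamine carrier, from the list of amino acid carriers, stood at 23.9, 28.4 and 15.7 CPM in left ducts and at 76.8, 83.9 and 83.5 CPM in right ducts (log2 ratio -1.83 ± 0.18 SE, adjusted p = 1.48e-06). The left samples did not overlap the right ones in either. The lactate carrier SLC16A3 was lower on the left (-1.34 ± 0.19), but was not called with the covariate (log2 ratio -0.82, adjusted p = 0.0627). Of 29 amino acid carriers 8 were higher in left ducts and 11 in right ducts. The lipid flippases ATP10A (0.86 ± 0.11) and ATP10B (-1.34 ± 0.26) were on opposite sides. Subunits of the vacuolar proton pump, which acidifies lysosomes, were higher on the right in 8 of 18 cases, among them ATP6V0C (-0.54 ± 0.09), and 2 of those 8 calls held with the covariate and 2 with library size alone.

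**Figure D3:**
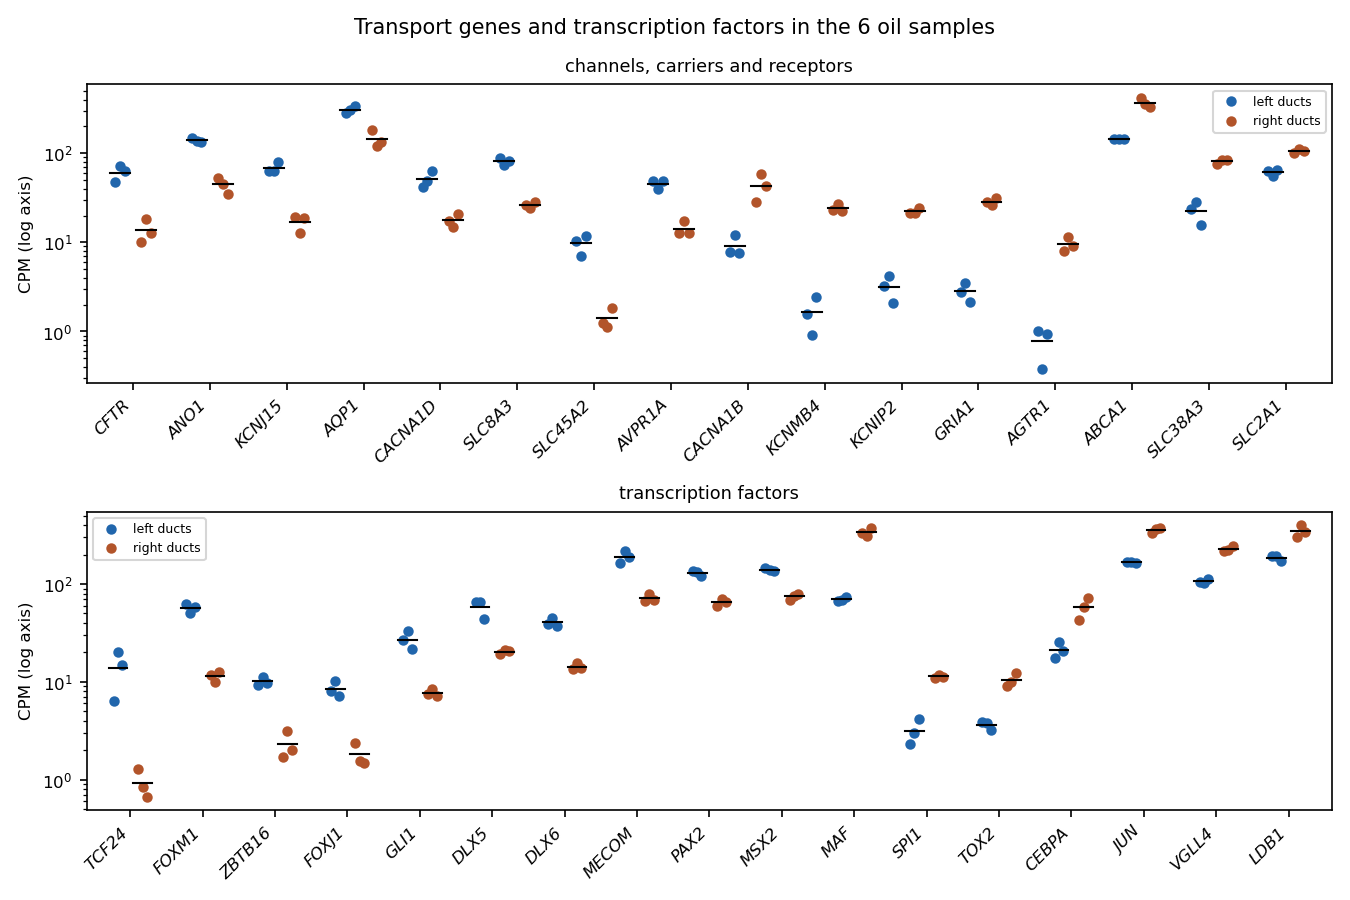
CPM on a log axis of transport genes (upper panel) and transcription factors (lower panel) in the 3 left and the 3 right oil samples, 1 point a sample and a line at the mean of each side. CFTR to AVPR1A and TCF24 to MSX2 lie higher in left ducts, and CACNA1B to SLC2A1 and MAF to LDB1 lower in left ducts; KCNMB4 and AGTR1 are the widest apart on the low side.

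HOX factors, which mark position along the body axis, were close to equal between the sides. Of 32 tested members 30 were not called, the log2 ratios ran from -0.94 to 0.66, and the median was -0.04 (0.14 with library size alone). HOXC8 (-0.84 ± 0.24, adjusted p = 0.0139) and HOXC9 (-0.94 ± 0.29, adjusted p = 0.0199) were the 2 called members, both at no more than 8.15 CPM in any oil sample. Neither held with the covariate (adjusted p = 0.723 for HOXC8 and 0.517 for HOXC9), and HOXC9 was lost without oil_left 1, oil_left 3, oil_right 2 or oil_right 3 (adjusted p between 0.052 and 0.0787). The duct regulators LHX1 (adjusted p = 0.428) and EMX2 (0.366) and the oestrogen receptor ESR1 (0.19) were not called either, and their samples overlapped between the sides.

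Other homeobox genes were higher in left ducts, 9 of 27 against 3, and 5 against 0 with the covariate. DLX5, a distal-less homeobox factor, had 64.8, 65.4 and 43.5 CPM in left ducts against 19.1, 21.3 and 20.6 CPM in right ducts (log2 ratio 1.51 ± 0.16 SE, adjusted p = 2.87e-06). Levels of DLX6, its neighbour in the genome, were 39.2, 45 and 37.3 CPM in left ducts and 13.6, 15.5 and 13.9 CPM in right ducts (log2 ratio 1.5 ± 0.12 SE, adjusted p = 1.64e-07). The genes lie on chromosome 2 of assembly Coturnix japonica 2.1, DLX6 at 22316817 to 22320370 on the plus strand and DLX5 at 22325451 to 22327842 on the minus strand, with 5080 bases between them. Both were higher in each left sample than in any right one. MSX2, a homeobox factor of the duct list, stood at 146, 140 and 136 CPM in left ducts and at 69.1, 75.6 and 79.9 CPM in right ducts (log2 ratio 0.91 ± 0.09 SE, adjusted p = 1.4e-06). PAX2, which duct epithelium needs to form in mice, stood at 135, 134 and 122 CPM in left ducts and 59.1, 70.6 and 66.3 CPM in right ducts (1.0 ± 0.13, adjusted p = 1.91e-05).

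TCF24, a little studied basic helix-loop-helix factor, had 6.42, 20.4 and 14.7 CPM in left ducts against 1.29, 0.835 and 0.667 CPM in right ducts (log2 ratio 3.89 ± 0.41 SE, adjusted p = 3.21e-06). The left samples spread more than 3-fold, with oil_left 1 the lowest, and without oil_left 1, oil_right 1 and EE_right 1 the ratio was 4.55. Levels of FOXM1, a forkhead factor of dividing cells, were 62.4, 50.5 and 58.2 CPM in left ducts and 11.8, 9.97 and 12.6 CPM in right ducts (log2 ratio 2.31 ± 0.14 SE, adjusted p = 7.77e-09). GLI1, both a mediator and a target of hedgehog signalling, stood at 26.5, 32.8 and 21.9 CPM in left ducts and at 7.47, 8.52 and 7.08 CPM in right ducts (log2 ratio 1.82 ± 0.15 SE, adjusted p = 2.82e-07). ZBTB16, a zinc finger repressor of stem cells, had 9.36, 11.2 and 9.66 CPM in left ducts against 1.7, 3.17 and 2 CPM in right ducts (log2 ratio 2.14 ± 0.31 SE, adjusted p = 6.32e-05). No left sample of these genes overlapped a right one, which for TCF24, FOXM1 and ZBTB16 was a condition of their choice as leading genes. Levels of MECOM, a zinc finger factor of stem cells and epithelia, were 166, 217 and 189 CPM in left ducts and 66.5, 78.3 and 68.8 CPM in right ducts (log2 ratio 1.42 ± 0.11 SE, adjusted p = 1.7e-07).

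FOXJ1, the master regulator of motile cilia, stood at 8.05, 10.2 and 7.13 CPM in left ducts and 2.37, 1.56 and 1.49 CPM in right ducts (2.23 ± 0.42, adjusted p = 0.000695), and was not called with the covariate (adjusted p = 0.0922). Of 13 tested ciliated cell markers 6 were higher in left ducts and none in right ducts, and they summed to between 76.7 and 87.4 CPM in left ducts and between 47.1 and 52.7 CPM in right ducts, with MCIDAS at 0. The factors of vessels SOX7 (1.17 ± 0.08), SOX18 (0.94 ± 0.15) and ERG (1.39 ± 0.19) were higher on the left. SOX18 was not called with the covariate (log2 ratio 0.69, adjusted p = 0.0697).

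bZIP factors, which bind DNA through a basic region and a leucine zipper, were lower in left ducts, with 1 of 41 called on the left side and 16 on the right side (median -0.24, and -0.05 with library size alone). MAF, a large MAF factor, stood at 66.5, 69 and 74.4 CPM in left ducts and at 331, 311 and 377 CPM in right ducts (log2 ratio -2.28 ± 0.11 SE, adjusted p = 2.03e-09). The left samples lay far below the right ones, and MAF was also called in EE ducts in the same direction (-0.88, adjusted p = 0.00235). MAF overlaps WWOX on the opposite strand, which had 6306 counts in the oil samples against 23484 of MAF. SPI1, an ETS factor needed for macrophages and no bZIP factor, had 2.33, 3 and 4.18 CPM in left ducts against 11, 11.8 and 11.2 CPM in right ducts (log2 ratio -1.85 ± 0.27 SE, adjusted p = 7.11e-05). Its own list of 22 ETS and RUNX factors held 7 calls on the left side and 2 on the right side with RLE size factors. RLE is, like TMM, a correction for the make-up of each library. With library size alone, which moved all genes towards the left, these were 14 and 1. With the covariate these were 4 and 1. Levels of CEBPA, a bZIP factor of fat and blood cells, were 17.5, 25.4 and 20.6 CPM in left ducts and 43, 57.6 and 72.7 CPM in right ducts (log2 ratio -1.45 ± 0.20 SE, adjusted p = 3.97e-05). A gene without a name overlaps CEBPA on the same strand and may share reads with it. That gene had 737 counts in the oil samples against 4557 of CEBPA. JUN, a subunit of AP-1, stood at 169, 168 and 166 CPM in left ducts and at 335, 365 and 373 CPM in right ducts (log2 ratio -1.09 ± 0.09 SE, adjusted p = 1.64e-07). Left samples of these genes, too, were all below the right ones. With the covariate 5 of the 16 bZIP factors were still called lower on the left. With library size alone 6 were called on the left side and 13 on the right side. The macrophage markers given with the iron genes summed to less in left ducts as well.

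Further factors were called on each side. SNAI1, known for loosening epithelia (0.86 ± 0.13), ID1, a target of BMP signals (1.15 ± 0.14), SPDEF, a factor of secreting epithelia (1.30 ± 0.19), and EBF1 (1.36 ± 0.21) were higher on the left. TOX2 (-1.52 ± 0.24), the early response factor EGR1 (-0.90 ± 0.14) and SOX9 (-0.91 ± 0.26) were lower on the left. SOX9 was not called with the covariate (log2 ratio -1.01, adjusted p = 0.171). Its call was also lost without oil_left 1, oil_right 1 and EE_right 1 together (-0.82, 0.0728). Of 22 TEAD, SMAD, TCF and LEF factors 6 were called on the left side and 4 on the right side with RLE size factors. With the covariate 0 and 2 were called. TEAD4, of that list, was higher on the left (log2 ratio 0.54), a call lost with the covariate (0.34, adjusted p = 0.265). VGLL4, which competes with YAP for TEAD factors, had 106, 102 and 113 CPM in left ducts against 216, 222 and 246 CPM in right ducts (log2 ratio -1.09 ± 0.08 SE, adjusted p = 6.69e-08). WWTR1 (TAZ), a partner of TEAD factors, was lower on the left by less (-0.68 ± 0.08). Levels of LDB1, which bridges LIM-domain factors, were 192, 193 and 173 CPM in left ducts and 305, 399 and 342 CPM in right ducts (log2 ratio -0.91 ± 0.10 SE, adjusted p = 6.83e-06). In these genes, too, the left samples lay below the right ones. Among nuclear receptors 2 of 27 were higher in left ducts and 8 in right ducts (median -0.12, but 0.06 with library size alone), among them RARA (-0.68 ± 0.09) and RXRA (-0.70 ± 0.15), receptors of vitamin A derivatives; RXRA was not called with the covariate (adjusted p = 0.689).

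Adhesion genes were called on the left more often than on the right, but with the haemoglobin covariate 46 of the 380 were higher in left ducts and 39 in right ducts (median 0.10), against 691 and 578 of all genes. The basement membrane is the sheet of matrix under epithelium and around vessels. Of its 33 tested genes 18 were higher in left ducts and 6 in right ducts, with a median log2 ratio of 0.48. With the covariate these were 8 and 5 (median 0.32). COL4A1, a chain of collagen IV, the scaffold of that sheet, stood at 425, 434 and 556 CPM in left ducts and at 238, 182 and 171 CPM in right ducts (log2 ratio 1.26 ± 0.15 SE, adjusted p = 1.27e-05). COL4A2, the partner chain, had 228, 236 and 250 CPM in left ducts against 119, 92.4 and 89.2 CPM in right ducts (log2 ratio 1.24 ± 0.15 SE, adjusted p = 1.07e-05). These genes lie head to head on chromosome 1, COL4A1 at 125051528 to 125157540 on the minus strand and COL4A2 at 125157602 to 125285465 on the plus strand, with 61 bases between them. The ratios of the pair were nearly the same, and in neither did the sides overlap. The endothelial markers given with the water channels summed to more in left ducts as well, and their part was not tested.

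Levels of FBLN5, a fibulin that helps to assemble elastic fibres, were 573, 390 and 401 CPM in left ducts and 151, 120 and 92.8 CPM in right ducts (log2 ratio 1.91 ± 0.17 SE, adjusted p = 4.31e-07). COL18A1, the collagen from which endostatin is cut, stood at 718, 630 and 645 CPM in left ducts and at 382, 285 and 330 CPM in right ducts (log2 ratio 1.0 ± 0.11 SE, adjusted p = 3.76e-06). HMCN1, a giant matrix protein of tissue borders, had 215, 214 and 231 CPM in left ducts against 91.1, 67.1 and 97.1 CPM in right ducts (log2 ratio 1.37 ± 0.16 SE, adjusted p = 1.02e-05). The spread among left samples was widest in FBLN5, and still no side overlapped the other. Laminins, the second scaffold, did not move as 1 group. LAMC1 (0.31 ± 0.09) was higher on the left in a call lost without oil_right 2 (adjusted p = 0.0641) and with the covariate (0.527), LAMB1 was not called (adjusted p = 0.247), and LAMB2 was lower on the left, at 108, 116 and 81.7 CPM in left ducts and 197, 211 and 150 CPM in right ducts (-0.86 ± 0.13, adjusted p = 0.000131). SMOC2, a calcium-binding matrix protein, was lower on the left (-0.83 ± 0.11), as was the integrin ligand NPNT (-0.65 ± 0.09).

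Integrins, the receptors of matrix, were called on the left side in 12 of 20 cases and on the right side in 3. The list was drawn by symbol and holds 3 genes that are no integrin subunit, and of the 17 subunits 10 were higher in left ducts and 3 in right ducts. With the covariate 2 of the 20 were called on each side, and the median log2 ratio was 0.33. Levels of ITGA6, a laminin receptor chain, were 109, 128 and 124 CPM in left ducts and 68.7, 61.8 and 56.4 CPM in right ducts (log2 ratio 0.95 ± 0.12 SE, adjusted p = 2.04e-05). ITGB1, a partner chain of ITGA6, stood at 605, 617 and 708 CPM in left ducts and 426, 388 and 429 CPM in right ducts (0.63 ± 0.09, adjusted p = 4.1e-05, and 0.0501 with the covariate). ITGA8, the receptor chain for NPNT, stood at 272, 272 and 290 CPM in left ducts and at 420, 344 and 383 CPM in right ducts (log2 ratio -0.46 ± 0.09 SE, adjusted p = 0.00101). ITGB5 was lower on the left too (-0.66 ± 0.08), and the sides were apart in each of these 4 genes. ITGA8 was not called with library size alone (adjusted p = 0.0516). The endothelial and epithelial markers, which summed to more in left ducts, stand beside this list too.

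**Figure D4:**
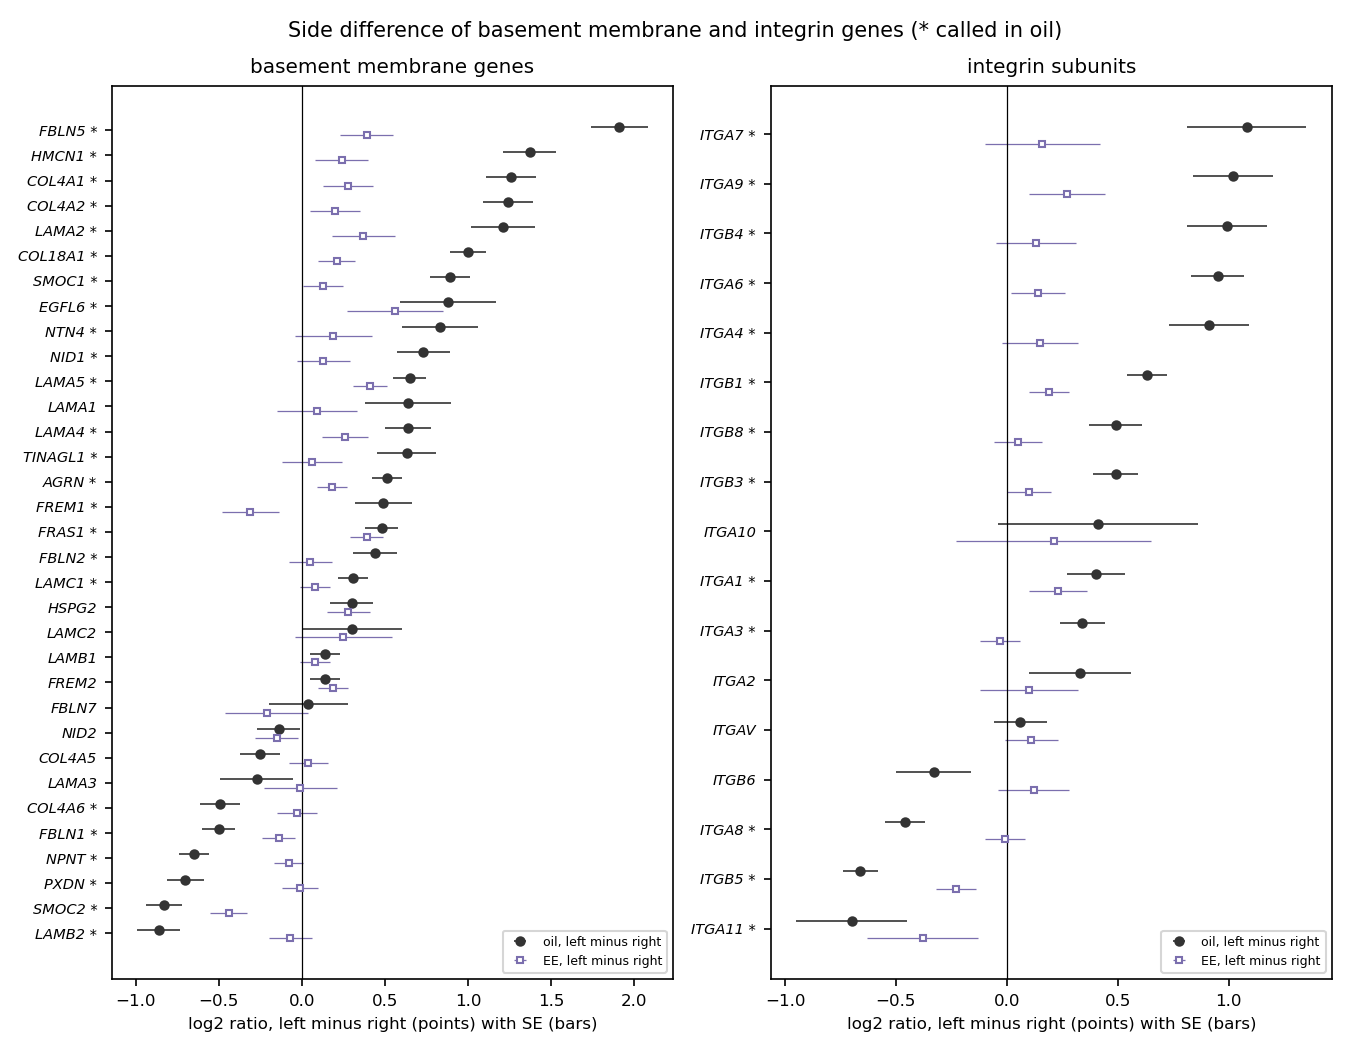
Log2 ratio of left over right with its SE for basement membrane genes (left panel) and integrin subunits (right panel), with filled circles for oil ducts and open squares for EE ducts; asterisks mark genes called in oil. COL4A1, COL4A2, FBLN5 and ITGA6 are far to the positive side in oil, LAMB2, SMOC2 and ITGB5 to the negative side, and most EE ratios lie nearer to 0.

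Matricellular proteins held the highest called ratio of the adhesion genes above 5 CPM. Of 32 matricellular and fibronectin-type ligands 14 were called on the left side and 7 on the right side with RLE size factors. With the covariate 5 and 2 were called. MATN2, ECM1 and SPOCK1 were among the members higher on the right. CCN2, connective tissue growth factor, had 181, 136 and 235 CPM in left ducts against 23.5, 28.8 and 20.6 CPM in right ducts (log2 ratio 2.92 ± 0.21 SE, adjusted p = 6.94e-08). Levels of CCN1, its relative CYR61, were 26.5, 22.7 and 36.9 CPM in left ducts and 4.89, 11.2 and 7.18 CPM in right ducts (log2 ratio 1.88 ± 0.25 SE, adjusted p = 3.21e-05). Both are known targets of YAP and of TGF-beta signals. Both were higher in each left sample than in any right one, a condition of their choice as leading genes. RELN, the matrix protein reelin, was higher on the left as well (1.07 ± 0.15).

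Junction genes of epithelium were higher in left ducts. Of 33 genes of tight junctions 14 were higher in left ducts and 4 in right ducts, and of 15 of desmosomes and keratins 8 and none. For tight junctions these were 6 and 1 with the covariate. CLDN1, a sealing claudin, stood at 332, 324 and 287 CPM in left ducts and at 185, 169 and 175 CPM in right ducts (log2 ratio 0.83 ± 0.08 SE, adjusted p = 1.26e-06). EVPL, envoplakin, which ties desmosomes to keratin, had 131, 195 and 130 CPM in left ducts against 53.1, 74 and 51.5 CPM in right ducts (log2 ratio 1.35 ± 0.19 SE, adjusted p = 4.23e-05). The sides did not overlap in these genes. CLDN2, a claudin that lets cations pass, was opposite (-0.70 ± 0.15), though not called with the covariate (log2 ratio -0.28, adjusted p = 0.511). Of the 8 desmosome calls 1 held with the covariate, where the median of that list was 0.27. The epithelial and endothelial markers given with the water channels summed to more in left ducts as well.

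Protocadherins were called on the left side in 7 of 11 cases and on the right side in 1, and in 3 and 1 with the covariate. PCDH11X was higher on the left (0.88 ± 0.11) and PCDH10 on the right (-0.82 ± 0.13). Among 19 cadherins 6 were called on the left side and 5 on the right side with RLE size factors (median -0.11). With library size alone these were 6 and 4 (median 0.07), and with the covariate 2 and 0 (median -0.2). Levels of FAT3, a giant cadherin of that list, were 93.3, 87.6 and 94.3 CPM in left ducts and 34.6, 21.1 and 28.9 CPM in right ducts (log2 ratio 1.70 ± 0.18 SE, adjusted p = 2.48e-06). Of 35 genes that link adhesions to actin 15 were higher in left ducts and 3 in right ducts, and 3 and 1 with the covariate (median 0.06). The 13 smooth muscle markers, 11 of them higher on the left, summed to between 5190 and 6440 CPM in left ducts and between 2440 and 3940 CPM in right ducts, with none at 0. Long genes were called on the left more often. In the quintile of genes with the longest exonic sequence, 5506 bases or more, 27.5% were higher in left ducts and 16.6% in right ducts, against 11.1% and 17.8% in the shortest quintile. The median length was 4837 bases in adhesion genes and 3056 over all genes, and within the longest quintile 41.5% of 159 adhesion genes were higher in left ducts and 17.6% in right ducts.

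In the list of leucine-rich, teneurin and neurexin molecules 9 of 44 were higher in left ducts and 13 in right ducts, 3 and 9 with the covariate, and 11 and 11 with library size alone. The 5 lowest ratios of called adhesion genes above 5 CPM, from this and other lists, were in genes known from nerve cells. ELFN2, a leucine-rich protein of synapses, stood at 1.77, 2.12 and 0.288 CPM in left ducts and at 12.9, 24.8 and 22.3 CPM in right ducts (log2 ratio -3.76 ± 0.45 SE, adjusted p = 1.02e-05). LRRTM1, a leucine-rich partner of neurexins, had 2.23, 0.666 and 0.937 CPM in left ducts against 9.43, 11.2 and 10.7 CPM in right ducts (log2 ratio -3.01 ± 0.47 SE, adjusted p = 0.000132). Levels of CBLN1, a secreted protein of synapses, were 2.14, 2 and 2.74 CPM in left ducts and 10.9, 25 and 15.9 CPM in right ducts (log2 ratio -2.92 ± 0.32 SE, adjusted p = 3.91e-06). The left samples of these genes were all under 3 CPM. Without oil_left 1 the ratio of LRRTM1 was -3.72, and LRRTM1 lies inside CTNNA2 on the opposite strand, which had 12574 counts in the oil samples against 670. CBLN1 was also called in EE ducts (-1.74, adjusted p = 0.042).

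Of 47 immunoglobulin-type molecules 13 were higher in left ducts and 8 in right ducts, and 3 on each side with the covariate. SDK2, a sidekick protein, was higher on the left (1.24 ± 0.13), and NCAM2 lower. NCAM2, a neural cell adhesion molecule, stood at 5.49, 3.33 and 7.85 CPM in left ducts and at 25.3, 32.1 and 43.1 CPM in right ducts (log2 ratio -2.62 ± 0.27 SE, adjusted p = 2.71e-06). TSPAN7, a tetraspanin of nerve cells, had 31.2, 45.3 and 41.4 CPM in left ducts against 150, 220 and 163 CPM in right ducts (log2 ratio -2.18 ± 0.17 SE, adjusted p = 1.64e-07). OPCML, an anchored immunoglobulin-type protein, was lower on the left (-1.17 ± 0.14), and so were the guidance proteins NTN1 (-1.32 ± 0.14) and NTNG1 (-1.56 ± 0.16). NTN1 overlaps STX8 on the opposite strand. The markers of nerve and glia are given above with the transmitter receptors.

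Receptors and ligands of cell guidance were on both sides. Of 14 ephrins and Eph receptors 6 were higher in left ducts and 1 in right ducts, and 3 and 1 with the covariate. Levels of EFNB2, an ephrin of arteries and epithelia, were 47.5, 49.1 and 53.8 CPM in left ducts and 28.2, 28.6 and 27.7 CPM in right ducts (log2 ratio 0.83 ± 0.11 SE, adjusted p = 2.81e-05). EPHB1 (0.65 ± 0.08) and EPHA4 (0.85 ± 0.14), receptors of ephrins, were higher on the left with it, and EPHA5 was opposite (-0.64 ± 0.14). EPHA5 was not called with limma on log2(FPKM + 1) (log2 ratio -0.32, adjusted p = 0.0771). Of 28 semaphorins, plexins and neuropilins 5 were higher in left ducts and 9 in right ducts (median -0.07, but 0.11 with library size alone). SEMA4B, a membrane-bound semaphorin, stood at 85.2, 87.7 and 74.1 CPM in left ducts and at 146, 153 and 145 CPM in right ducts (log2 ratio -0.84 ± 0.09 SE, adjusted p = 2.3e-06). SEMA7A, an anchored semaphorin that binds integrins, was opposite, at 58.7, 55.8 and 60.5 CPM in left ducts and 37.4, 24.4 and 28.8 CPM in right ducts (0.95 ± 0.15). In the slit, robo and netrin list 7 of 16 genes were called on each side, with ROBO4, a receptor of vessels, higher on the left (1.56 ± 0.22). Of 33 syndecans, glypicans and tetraspanins 9 were called on the left side and 8 on the right side with RLE size factors (median -0.07). With the covariate 4 and 5 were called. Of that list the heparan sulphate proteoglycans SDC2 (0.64 ± 0.07) and GPC4 (0.75 ± 0.09) were higher on the left. The junction protein beta-catenin, CTNNB1 (0.61 ± 0.08), of another list, was higher on the left too.

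The same side difference in EE ducts came from separate samples. There, 10 of the 12113 genes (0.0826%) were called between left and right, and the difference between the oil and the EE side differences was called in 1358 genes (11.2%). The 38 genes described here that led the 4 categories by their ratio in oil were set beside EE, and 3 of them were called in EE in the same direction, GAMT, MAF and CBLN1. For 35 of the 38 the oil ratio and the EE ratio differed by that test. These genes were chosen for a large ratio in oil, and a smaller ratio in other samples may come from that choice alone. Over all 778 called genes of the 4 categories, 260 (33.4%) differed between oil and EE, close to the 30.6% of all 4422 called genes.

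**Figure D5:**
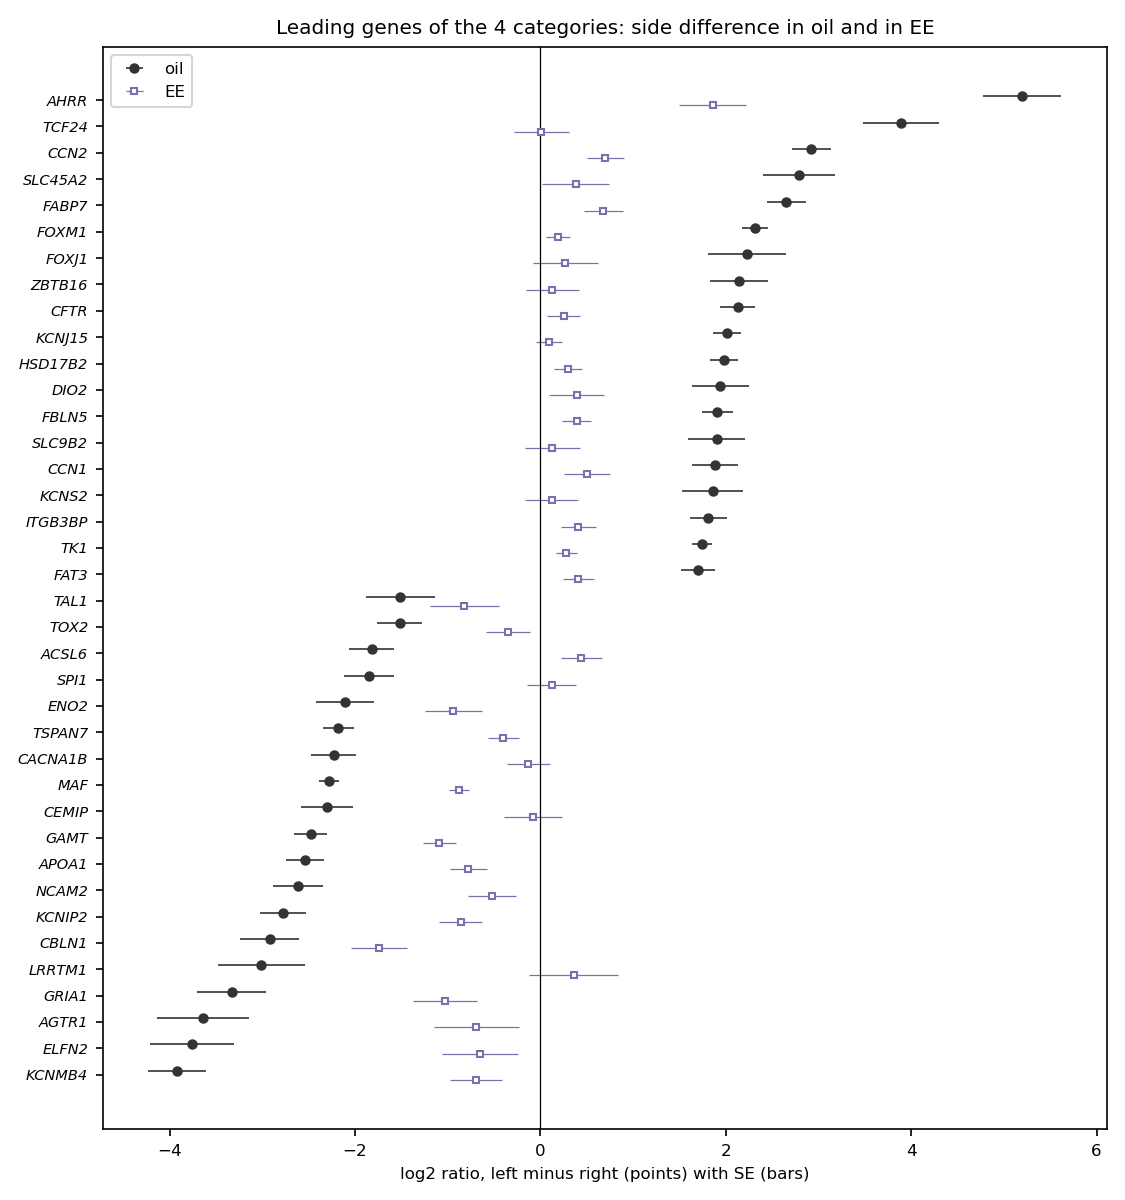
Log2 ratio of left over right with its SE for the 38 leading genes, filled circles for oil ducts and open squares for EE ducts, ordered by the oil ratio. All 38 EE ratios are nearer to 0 than the oil ratios, and GAMT, MAF and CBLN1 keep a call in EE.

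The genes differ in how much of the oil ratio was seen in EE. TCF24 stood at 3.89 in oil and 0.01 ± 0.30 in EE, and KCNJ15 at 2.01 and 0.09 ± 0.14. CBLN1 stood at -2.92 in oil and -1.74 ± 0.30 in EE, and the difference between the 2 was not called (adjusted p = 0.091). AHRR stood at 5.20 in oil and 1.86 ± 0.36 in EE, where it was not called (adjusted p = 0.0814). In CPM, AHRR had 2.02, 2.14 and 3.41 in left EE ducts and 0.767, 0.568 and 0.744 in right EE ducts, and the EE sides did not overlap either.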

How the data were processed

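RNA sequencing of 12 samples was used, 3 each of left and right Müllerian ducts under oil and EE. Per the submitters' processing notes, reads were handled with cutadapt 1.9.1, HISAT2 2.0.1, HTSeq 0.6.1 and DESeq2 1.6.3, with no role or order given there; build, annotation and strand setting: not given in the sources used here. The authors deposited raw counts per gene and sample, and FPKM values, which the counts return to within 0.005 when scaled by the deposited exonic gene size (a length in bases) and the total counts. All 16013 genes had the start and end of the reference gene table for Coturnix japonica 2.1, and every column of sample values was used.

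A single edgeR model (version 4.0.16, under R 4.3.3) with 4 group means was fitted to the counts of the 12 samples, scaled by TMM, and contrasts were tested two-sided by quasi-likelihood. Adjusted p-values in the text are Benjamini-Hochberg values over all 12113 genes from that fit unless another is named, and an exact permutation test of 3 samples against 3 could not go below 0.1. Levels and list counts come from the same fit. It was tested on simulated data in which far fewer genes differed than were called here, with equal numbers in each direction. That test cannot judge the choice of scaling. Members and gene lists were chosen with earlier results of these data known. The rule for naming took, per category, the 5 highest and the 5 lowest ratios among called genes of at least 5 CPM whose sides did not overlap, and up to 3 members per list and direction by lowest p; of the 330 genes so taken, a part is named, picked with values known, and some are not reported here. Genes outside that rule, chosen after their values were seen, are CEBPA, COL4A1, COL4A2, EMX2, ENO1, ESR1, GAPDH, HK1, HMGCS1, LAMB1, LAMB2, LAMC1, LDHB, LHX1, PFKFB3, PFKL, PFKM, PFKP, PGAM1, PGK1, TFRC, TPI1 and TYMS. Alternatives were other scalings, DESeq2 1.42.0, limma 3.58.1 on log2(FPKM + 1) and log2(FPKM + 0.1), other filters, the 6 oil samples alone, a replicate block, the haemoglobin share as a covariate, haemoglobin genes left out, a test against a fold of 1.5, and libraries left out.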

Additional observations from a re-analysis of the deposited data

Results flagged for a closer look

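The side difference of 35 leading genes was not the same in oil and in EE ducts by edgeR's quasi-likelihood test of the difference itself. The genes had been chosen for a large ratio in oil, and a smaller ratio in other samples may come from that choice alone. Values are the log2 ratio of left over right in oil minus that in EE, with adjusted p-values from 5.38e-06 (FOXM1) to 0.0322 (TOX2). Among metabolic genes the differences were 3.34 for AHRR, 1.97 for FABP7, 1.68 for HSD17B2, 1.55 for DIO2 and 1.46 for TK1, against -1.38 for GAMT, -1.76 for APOA1, -2.22 for CEMIP and -2.25 for ACSL6. Transport genes reached 2.40 (SLC45A2), 1.93 (KCNJ15), 1.89 (CFTR), 1.77 (SLC9B2, a sodium-proton exchanger) and 1.74 (KCNS2, a potassium channel subunit) on the positive side. On the negative side stood KCNMB4 at -3.21, AGTR1 at -2.95, GRIA1 at -2.30, CACNA1B at -2.10 and KCNIP2 at -1.92. For transcription factors the values were 3.87 in TCF24, 2.12 in FOXM1, 2.0 in ZBTB16 and 1.96 in FOXJ1, against -1.97 in SPI1, -1.40 in MAF and -1.18 in TOX2. Adhesion genes had 2.22 (CCN2), 1.52 (FBLN5), 1.40 (ITGB3BP, a centromere protein despite its symbol), 1.38 (CCN1) and 1.29 (FAT3), against -3.37 (LRRTM1), -3.12 (ELFN2), -2.10 (NCAM2) and -1.77 (TSPAN7). The oil ratio was farther from 0 than the EE ratio in all 35. SLC9B2 overlaps CISD2 on the opposite strand, with 1086 counts in the oil samples against 3081 of CISD2. ITGB3BP overlaps EFCAB7 in the same way, with 1422 counts against 1570 of EFCAB7. Reads of these pairs cannot be told apart if the counting ignored strand.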

How the results depend on the processing

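The number of called genes moved with few choices. It fell to 1269 (691 with the higher level in left ducts, 578 in right ducts) with the haemoglobin covariate and to 1027 (582 and 445) in a test against a fold of 1.5, and the cause was not tested. With the covariate 51 metabolic genes, 60 transport genes, 55 transcription factors and 85 adhesion genes were called, and against a fold of 1.5 they were 45, 67, 46 and 54, where the text has 186, 202, 178 and 218. Scalings by total counts changed the split of calls: library size alone gave 3749 left and 1224 right, limma on log2(FPKM + 1) 3603 and 1193, and limma on log2(FPKM + 0.1) 3635 and 1182. DESeq2 called 4698 genes, the 6 oil samples alone 4028, and leaving out oil_left 1, oil_right 1 and EE_right 1 together 3573. Without 1 sample at a time the count ran from 3578 (without oil_right 2) to 4416, or 1854 to 2238 left and 1724 to 2198 right. Of 228 called genes examined singly, 168 kept their call and direction with the covariate, 157 against a fold of 1.5, 218 with library size alone, 217 with limma and 228 with DESeq2. With the covariate the ratio changed sign in TAL1 (0.24) and RHAG (0.32), genes of red cells. Of the 38 leading genes 35 differed between oil and EE, and 29 to 36 over the alternatives.

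The replicate numbers were not taken as pairs. Deviations of same-numbered left and right samples correlated at 0.041, 0.12 and 0.136 in oil and at -0.036, 0.037 and 0.088 in EE, although in oil every sample correlated best with its own number, a hint from the data and not from the design. With the replicate number as a block 4390 genes were called, 2206 left and 2184 right, and all 228 genes kept their call. Depth limits the low genes most, such as AHRR and AGTR1, whose lower side averaged under 1 CPM.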

Other observations

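Genes outside the 4 categories also differed between left and right oil ducts, and the ones named here were chosen after their values had been seen. KIT, the receptor of stem cell factor, stood at 28.6, 35.6 and 25.1 CPM in left ducts and at 199, 254 and 219 CPM in right ducts (log2 ratio -2.91 ± 0.14 SE, adjusted p = 1.62e-09). COL21A1, a fibril-associated collagen, had 21.9, 29.6 and 23.1 CPM in left ducts against 253, 242 and 276 CPM in right ducts (log2 ratio -3.36 ± 0.15 SE, adjusted p = 1.62e-09). Levels of OTOA, otoancorin, known from the inner ear, were 11.3, 10.5 and 10.8 CPM in left ducts and 69.5, 68.3 and 77.6 CPM in right ducts (log2 ratio -2.72 ± 0.12 SE, adjusted p = 1.62e-09). All left samples of these genes were far below the right ones. DHRS3, which reduces retinal to retinol (-1.69 ± 0.09), TLL1, a tolloid-like protease that frees BMP signals in mice (-2.08 ± 0.12), HGF, hepatocyte growth factor (-1.44 ± 0.09), CDKN1C, an inhibitor of the cell cycle (-1.59 ± 0.11), and BMF, which promotes cell death (-2.44 ± 0.11), were lower on the left too. NTS, the gut and brain peptide neurotensin, stood at 140, 124 and 129 CPM in left ducts and at 22.3, 19.5 and 17.2 CPM in right ducts (log2 ratio 2.74 ± 0.16 SE, adjusted p = 8.45e-09). AMOTL2, an angiomotin that binds YAP, had 62.1, 60 and 66.9 CPM in left ducts against 21.2, 20 and 22.5 CPM in right ducts (log2 ratio 1.57 ± 0.09 SE, adjusted p = 5.84e-09). These peptide and angiomotin genes were higher in every left sample. In EE ducts COL21A1 (-1.08, adjusted p = 0.00292), OTOA (-1.17, 0.000425), BMF (-0.97, 0.00162) and DHRS3 (-0.49, 0.042) were called in the same direction.

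Several genes known to rise at low oxygen were looked at beside the glycolytic ones, again after values had been seen. Levels of DDIT4, an inhibitor of growth signals, were 185, 196 and 139 CPM in left ducts and 561, 480 and 492 CPM in right ducts (log2 ratio -1.56 ± 0.16 SE, adjusted p = 2.97e-06). NDRG1, a stress-induced protein, stood at 91.2, 109 and 84.6 CPM in left ducts and at 243, 238 and 238 CPM in right ducts (log2 ratio -1.34 ± 0.13 SE, adjusted p = 9.9e-07). P4HA1, which hydroxylates collagen, had 283, 227 and 249 CPM in left ducts against 591, 452 and 553 CPM in right ducts (log2 ratio -1.07 ± 0.13 SE, adjusted p = 8.31e-06). BNIP3L (-0.83 ± 0.10) and AK4 (-1.08 ± 0.17, and adjusted p = 0.0629 with the haemoglobin covariate) were also lower on the left. Other genes of that kind were not called lower on the left: LOX (adjusted p = 0.69), ADM (0.401) and EGLN1 (0.269) were not called and PLOD2 was higher on the left (0.34 ± 0.09), a call lost with the covariate (adjusted p = 0.568).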
